A study of Mus musculus with 2 samples.

Results

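Cholesterol efflux and the liver X receptors (LXRs) were examined through 6 genes, chosen by symbol from the gene list of both count matrices: the receptors Nr1h3 (LXR alpha) and Nr1h2 (LXR beta), the efflux transporters Abca1 and Abcg1, and the LXR targets Mylip and Lpcat3. All 6 of 6 symbols were found, each as a single row, among the 31053 genes listed. The cells were bone marrow derived macrophages (BMDM) of wild-type 129Sv mice, grown in medium with serum and macrophage colony-stimulating factor (M-CSF). On day 7 they received 1 µg/ml of a truncated, non-polymerizing form of Tamm-Horsfall protein (THP, or uromodulin, a glycoprotein made by the kidney tubule), or the vehicle alone, 5% dextrose, in both cases for 18 h. Each group was represented by 1 Chromium droplet library, in which RNA molecules are counted by unique molecular identifiers (UMIs). How many mice were pooled for a library is not stated in the labels. Dead cells were removed before the droplets were made. With 1 library per group there is no replicate check, so no p-value is given, treatment cannot be told apart from library or dish, and every interval covers counting error only.

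As background, LXRs are nuclear receptors that are activated by oxysterols and by intermediates of sterol synthesis, and they bind DNA as heterodimers with retinoid X receptors. In macrophages laden with cholesterol they switch on a programme of sterol export. Abca1 passes cholesterol and phospholipid to lipid-poor apolipoprotein A-I, and Abcg1 promotes efflux to mature high-density lipoprotein. Mylip, also called Idol, is a ubiquitin ligase that limits the uptake of lipoprotein cholesterol, and Lpcat3 builds polyunsaturated fatty acids into membrane phospholipids. Nr1h3 is enriched in macrophages, liver, gut and fat and in the human can be induced by its own product, whereas Nr1h2 is found in most tissues.

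The classical LXR element, called DR4, is a direct repeat of AGGTCA in which any 4 bases part the copies, and the Abca1 promoter is the textbook example. The 250 bases before each RefSeq transcription start (GRCm38.p6) were searched on both strands, comparing the 12 letters of the repeat, for the 5 of 6 members that have an entry in the promoter table; Abcg1 is the other member. A match with 3 of 12 letters differing was found upstream of Abca1, on the opposite strand from 67 to 52 bases before the start, and in none of the other windows. At that tolerance 18.5% of all 32851 promoter windows held a match. With at most 2 mismatches 2.57% of them did, and none of the windows searched for the members. The stretches of 3 members are shown, without annotated exons: that of Abca1 with the match in capitals, and those of Nr1h3 and Mylip because their levels differed most between the libraries. The Abca1 stretch is chr4:53159896-53160145 on the minus strand, the Nr1h3 stretch is chr2:91195152-91195366 on the minus strand (250 to 36 bases before a start that lies within the annotated gene), and the Mylip stretch is chr13:45389492-45389741 on the plus strand.
Abca1: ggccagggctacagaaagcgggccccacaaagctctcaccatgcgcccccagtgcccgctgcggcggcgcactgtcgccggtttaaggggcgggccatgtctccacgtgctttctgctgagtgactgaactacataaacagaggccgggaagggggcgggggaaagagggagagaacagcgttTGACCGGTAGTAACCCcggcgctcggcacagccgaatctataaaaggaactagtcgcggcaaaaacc
Nr1h3: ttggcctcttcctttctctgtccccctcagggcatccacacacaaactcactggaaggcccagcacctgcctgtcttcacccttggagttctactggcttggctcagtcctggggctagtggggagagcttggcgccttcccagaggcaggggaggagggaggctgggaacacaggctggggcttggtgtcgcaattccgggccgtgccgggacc
Mylip: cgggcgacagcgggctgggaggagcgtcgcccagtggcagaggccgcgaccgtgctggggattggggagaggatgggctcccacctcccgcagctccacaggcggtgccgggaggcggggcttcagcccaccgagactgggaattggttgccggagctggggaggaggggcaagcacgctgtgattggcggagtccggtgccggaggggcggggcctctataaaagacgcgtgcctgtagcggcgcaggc
These letters differ in composition: G and C make up 61.6% of the Abca1 stretch, 63.3% of the Nr1h3 stretch and 71.2% of the Mylip stretch, with 20, 5 and 23 CpG dinucleotides.

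In the GENCODE M21 annotation of GRCm38, Nr1h3 (ENSMUSG00000002108) lies on chromosome 2 from 91184061 to 91202834, minus strand, and Nr1h2 (ENSMUSG00000060601) on chromosome 7 from 44549616 to 44553951, minus strand. Abca1 (ENSMUSG00000015243) spans 53030787 to 53159895 of chromosome 4 on the minus strand. Abcg1 (ENSMUSG00000024030) spans 31057675 to 31117988 of chromosome 17 on the plus strand. Mylip (ENSMUSG00000038175) occupies 45389742 to 45412022 of chromosome 13, plus strand, and Lpcat3 (ENSMUSG00000004270) 124663027 to 124704418 of chromosome 6, plus strand. Exons of Lpcat3 share 334 bases with Emg1 on the opposite strand, so reads there could be told apart only by strand-specific counting.

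After filtering, 12123 cells and 224825484 UMIs remained in the THP library, and 10978 cells and 207662132 UMIs in the vehicle library, with medians of 16113 and 17223 UMIs per cell. The libraries shared 42 barcode sequences, carried by 39 and 41 kept cells. Levels are counts per 1000000 UMIs (CPM). Over a whole library, more cells of a class and more RNA per cell cannot be told apart. Of the 31053 genes, 8012 reached 10 CPM in a library, and the median log2 ratio of THP over vehicle (on CPM + 1) over them was -0.18. With trimmed-mean (TMM) scaling that median was 0.10, a shift of 0.28, so ratios close to 1 have a direction that depends on the scaling.

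Nr1h3 was the member whose level differed most between the libraries. It was at 26.4 CPM (95% interval 25.8 to 27.1) in the THP library and at 12.4 CPM (11.9 to 12.9) in the vehicle library. The THP level was 2.13-fold the vehicle level (2.04 to 2.24), a log2 ratio of 1.03 that exceeded that of 99.1% of the genes measured. The other LXR, Nr1h2, was at 34.4 CPM (33.6 to 35.2) and 34.9 CPM (34.1 to 35.8), a fold of 0.984 (0.953 to 1.02). The Nr1h2 intervals overlap, and its log2 ratio of -0.02 became 0.25 with TMM scaling.

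Of the targets, Abcg1 and Mylip were lower in the THP library. Abcg1 was at 19.2 CPM with THP (18.7 to 19.8) and 27.2 CPM with vehicle (26.5 to 27.9), 0.707-fold (0.680 to 0.736). Mylip was at 5.51 CPM (5.20 to 5.82) and 9.34 CPM (8.93 to 9.76), 0.590-fold (0.549 to 0.634). Under TMM scaling both were lower as well, with log2 ratios of -0.21 for Abcg1 and -0.42 for Mylip. Abca1 was at 34.3 CPM (33.5 to 35.0) and 36.8 CPM (36.02 to 37.7), 0.930-fold (0.901 to 0.960), but its log2 ratio of -0.10 turned to 0.18 with TMM scaling. Lpcat3 was at 34.2 CPM (33.5 to 35.0) and 32.4 CPM (31.7 to 33.2), 1.06-fold (1.02 to 1.09).

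A fold of at least 2 on CPM + 1, with at least 10 CPM in a library, was used as the size rule. Of the 5 members at 10 CPM or more, 1 passed, Nr1h3, upwards. Of all 8012 genes, 0.911% passed upwards and 2.97% downwards. Nr1h3 was also the only member past the rule with TMM or RLE factors, under which 1.68% of genes passed upwards and 0.874% downwards, and with the length correction described below, with 1.44% and 0.887%. At 1.5-fold, which 2.33% of genes passed upwards and 17.3% downwards, it was again the only one. Mylip stayed under 10 CPM in both libraries and could not pass. The Nr1h3 call was lost when every cell was given equal weight, with a log2 ratio of 0.94, and when both libraries were given the same mix of cell classes, with 0.78.

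**Figure D1:**
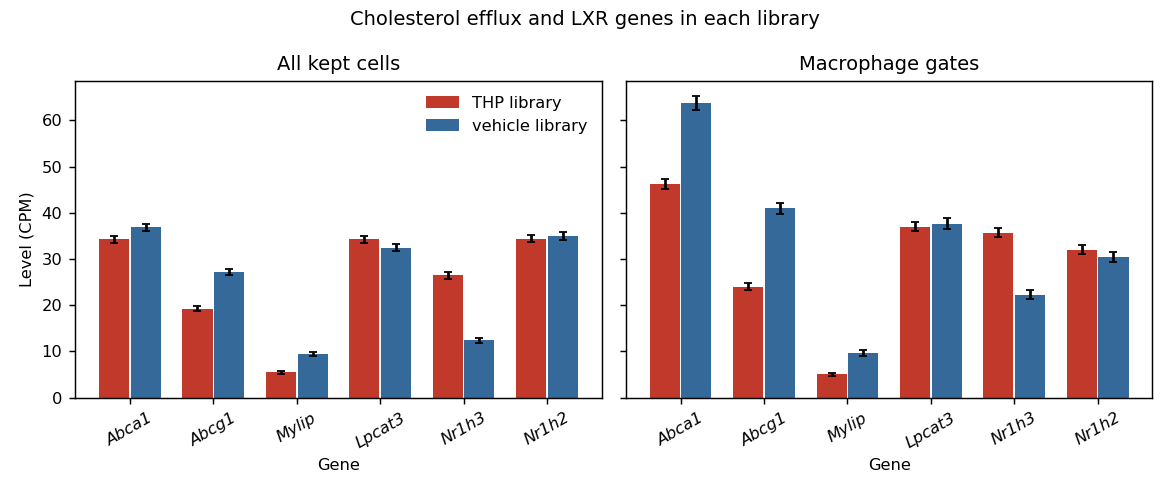
Level of each gene in CPM (vertical axis) in the THP library (red) and the vehicle library (blue), over all kept cells (left) and in the macrophage gates (right). Bars start at 0 and whiskers are exact Poisson 95% intervals. Within each gene, the Nr1h3 bar is higher for THP in both panels (26.4 against 12.4 CPM and 35.7 against 22.3 CPM), and the Abcg1 and Mylip bars are higher for vehicle.

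The BMDM label was checked against marker genes. Cells were gated by their summed marker UMIs per 10000 UMIs, with limits set after the distributions had been seen, so a gate is a range of a score and not a cell type in itself. Macrophage gates (Adgre1, the C1q genes, Csf1r, Mrc1 and others) held 5998 THP cells, or 49.5%, and 3887 vehicle cells, or 35.4%. Their cells had medians of 26.45 and 26.53 macrophage marker UMIs per 10000, and 4.98 and 6.85 mature neutrophil marker UMIs. Of the macrophage-gate cells, 2.90% and 3.32% lay within 20% above the limit. Immature and mature neutrophil gates, a monocyte gate, a myeloid progenitor gate and an antigen-presenting gate held most of the rest, so the cultures were mixed and the 2 libraries differed in their mix. In all, 9 gates had at least 200 cells in each library, 4 of them macrophage gates: C1q-high, C1q-low, Vsig4 (with Cd209f, Cd163, Timd4 and Folr2) and osteoclast-like (with Atp6v0d2, Dcstamp and Mmp9). The Vsig4 gate was not matched between the libraries, with medians of 49.8 (THP) and 71.0 (vehicle) macrophage marker UMIs per 10000. In the C1q-low gate these medians were 21.3 and 21.4.

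Within the macrophage gates as a whole, both receptors and both transporters were compared. These cells still differed between the libraries: in a clustering of all cells, the clusters led by chemokine genes and Acod1 held 3069 and 2016 THP cells against 58 and 61 vehicle cells, and the cluster named macrophage held 58 against 2570. Nr1h3 was at 35.7 CPM with THP (34.7 to 36.7) and 22.3 CPM with vehicle (21.4 to 23.2), 1.60-fold (1.53 to 1.68). That difference was smaller than over all cells and did not pass the 2-fold rule, which 0.944% of the 7843 genes measured there passed upwards and 2.27% downwards. Nr1h2 was at 32.0 and 30.5 CPM, 1.05-fold (1.00 to 1.10). Abca1 was at 46.3 CPM (45.2 to 47.4) and 63.7 CPM (62.2 to 65.3), 0.726-fold (0.702 to 0.751). Abcg1 was at 24.0 CPM (23.2 to 24.8) and 40.9 CPM (39.7 to 42.2), 0.587-fold (0.561 to 0.613). Mylip was at 5.02 CPM (4.66 to 5.39) and 9.66 CPM (9.07 to 10.3), 0.519-fold (0.472 to 0.571). Lpcat3 was at 37.0 and 37.7 CPM, 0.982-fold (0.943 to 1.02), and its log2 ratio of -0.03 became 0.26 with TMM scaling.

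The lower transporter levels stand in a library where many genes were lower. At a 1.5-fold limit, which Abcg1 passed and Abca1 did not, 15.8% of the genes measured in the macrophage gates were lower with THP and 2.15% were higher. The Abcg1 log2 ratio of -0.75 exceeded that of 8.24% of those genes, the Abca1 ratio of -0.45 that of 24.3%, and the Nr1h3 ratio of 0.66 that of 98.2%.

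Transcript length moved with the ratios. The running median of the log2 ratio over 501 genes of like length in the macrophage gates was 0.01 at the length of Nr1h3 (1985 bases) but -0.60 at that of Abca1 (10262 bases). Against genes of like length, Abca1 turned from a log2 ratio of -0.45 to 0.14. Abcg1, with 5832 bases, went from -0.75 to -0.32, and Mylip, with 3065 bases, from -0.83 to -0.69. Nr1h3 kept 0.64. The part of length in these results was not tested further.

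**Figure D2:**
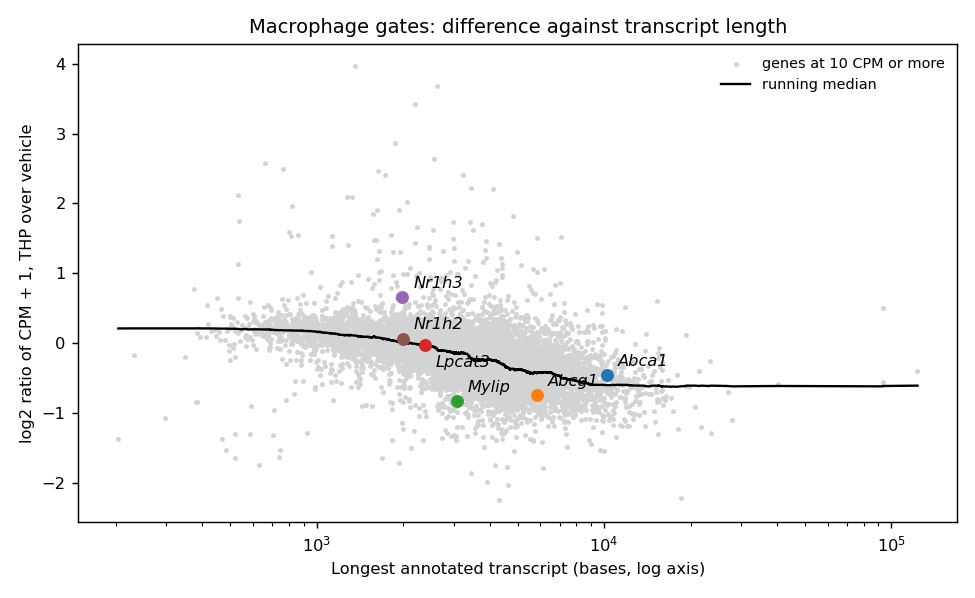
Log2 ratio of CPM + 1, THP over vehicle, in the macrophage gates (vertical axis) against the longest annotated transcript in bases (log horizontal axis). Grey points are genes at 10 CPM or more in a library, the black line is the running median of 501 genes, and coloured points are the members. Nr1h3 lies above the line (0.66 against 0.01), Abcg1 and Mylip below it, and Abca1 at -0.45 lies just above the line's -0.60.

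The receptors were distributed differently over the classes. Among the 9 gates with at least 200 cells Nr1h3 was highest in the Vsig4 macrophage gate, with 122 CPM in the THP library (115 to 128) and 98.6 CPM in the vehicle library (92.7 to 105). The C1q-high gate followed with 51.6 and 34.3 CPM, then the osteoclast-like gate with 32.7 and 15.9 CPM and the C1q-low gate with 17.0 and 6.41 CPM. The intervals of these 4 gates did not overlap within a library. The lowest of the 9 gates was that of monocytes, with 2.70 CPM (1.91 to 3.70) and 0.896 CPM (0.561 to 1.36). In the B cell gate no Nr1h3 UMI was seen in 92 THP cells and 58 vehicle cells, which allows a share of cells with a UMI of up to 3.26% and 5.17%, at medians of only 1932 and 2997 UMIs.

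Nr1h2 varied far less over the gates. Its levels ran from 31.5 CPM in the C1q-low gate to 42.9 CPM in mature neutrophils in the THP library, and from 29.2 to 44.1 CPM in the same gates in the vehicle library. No pair of neighbours in that order had separate intervals in either library, but the ends of the order did. Mature neutrophils had 40.0 to 45.9 against 30.3 to 32.7 CPM in the C1q-low gate with THP. With vehicle these were 41.3 to 47.1 against 27.9 to 30.6 CPM. The neutrophil and progenitor gates ranked above all macrophage gates in both libraries. Thus the receptors kept different profiles: over the 9 gates and 2 libraries Nr1h3 spanned 6.01 log2 units and Nr1h2 0.58, both on log2(CPM + 1).

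Nr1h3 was higher with THP in 9 of 9 gates, with an interval above 1 in each. Over these gates its log2 ratio exceeded that of 91.2% (Vsig4) to 99.6% (mature neutrophil) of genes. Without the cells rich in macrophage markers (10 or more marker UMIs per 10000) the interval spanned 1 in the progenitor gate (1.51, from 0.702 to 3.21) and the immature neutrophil gate (2.33, from 0.996 to 5.75), and with clusters in place of gates it spanned 1 in mature neutrophils (1.14, from 0.406 to 3.33), immature neutrophils (1.93, from 0.507 to 6.40) and progenitors (1.70, from 0.996 to 2.98). The fold was 1.23 in the Vsig4 gate (1.14 to 1.34), where doubled gate limits gave 1.70 (1.52 to 1.91), and 1.504 in the C1q-high gate (1.38 to 1.64). It was 2.06 in the osteoclast-like gate (1.70 to 2.51) and 2.655 in the C1q-low gate (2.38 to 2.97). In the Vsig4 gate the share of cells with an Nr1h3 UMI, after thinning to 5000 UMIs, was 35.1% with THP (31.0 to 39.2) and 36.6% with vehicle (32.1 to 41.3), and unthinned 54.9% and 64.5%. These shares go against the CPM there, so no order is read from them. In the C1q-low gate the thinned shares were 7.78% (6.89 to 8.74) and 3.17% (2.48 to 3.99), and unthinned 25.5% and 12.97% at medians of 21169 and 24581 UMIs per cell. Without the cells rich in macrophage markers Nr1h3 stayed under 10 CPM in the antigen-presenting and mature neutrophil gates, so that the calls there were lost. With all cells of a gate the 2-fold rule was passed in 3 of 9 gates, the C1q-low, antigen-presenting and mature neutrophil gates, where 1.07%, 1.12% and 1.49% of genes passed it upwards and 2.56%, 5.38% and 3.57% downwards. In the other gates no member passed it upwards. Nr1h3 stayed under 10 CPM in the monocyte, progenitor and immature neutrophil gates and could not pass. Its folds in these 3 were 3.01 (1.74 to 5.35), 3.09 (2.095 to 4.62) and 3.05 (2.045 to 4.63). Across all the other gates the share of genes that passed upwards was 1.07% (C1q-high), 1.1% (Vsig4), 0.941% (osteoclast-like), 0.756% (monocyte), 0.731% (progenitor) and 1.4% (immature neutrophil). The shares that passed it downwards there were 2.81%, 3.49%, 2.18%, 2.63%, 1.73% and 4.26%, in the same order.

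**Figure D3:**
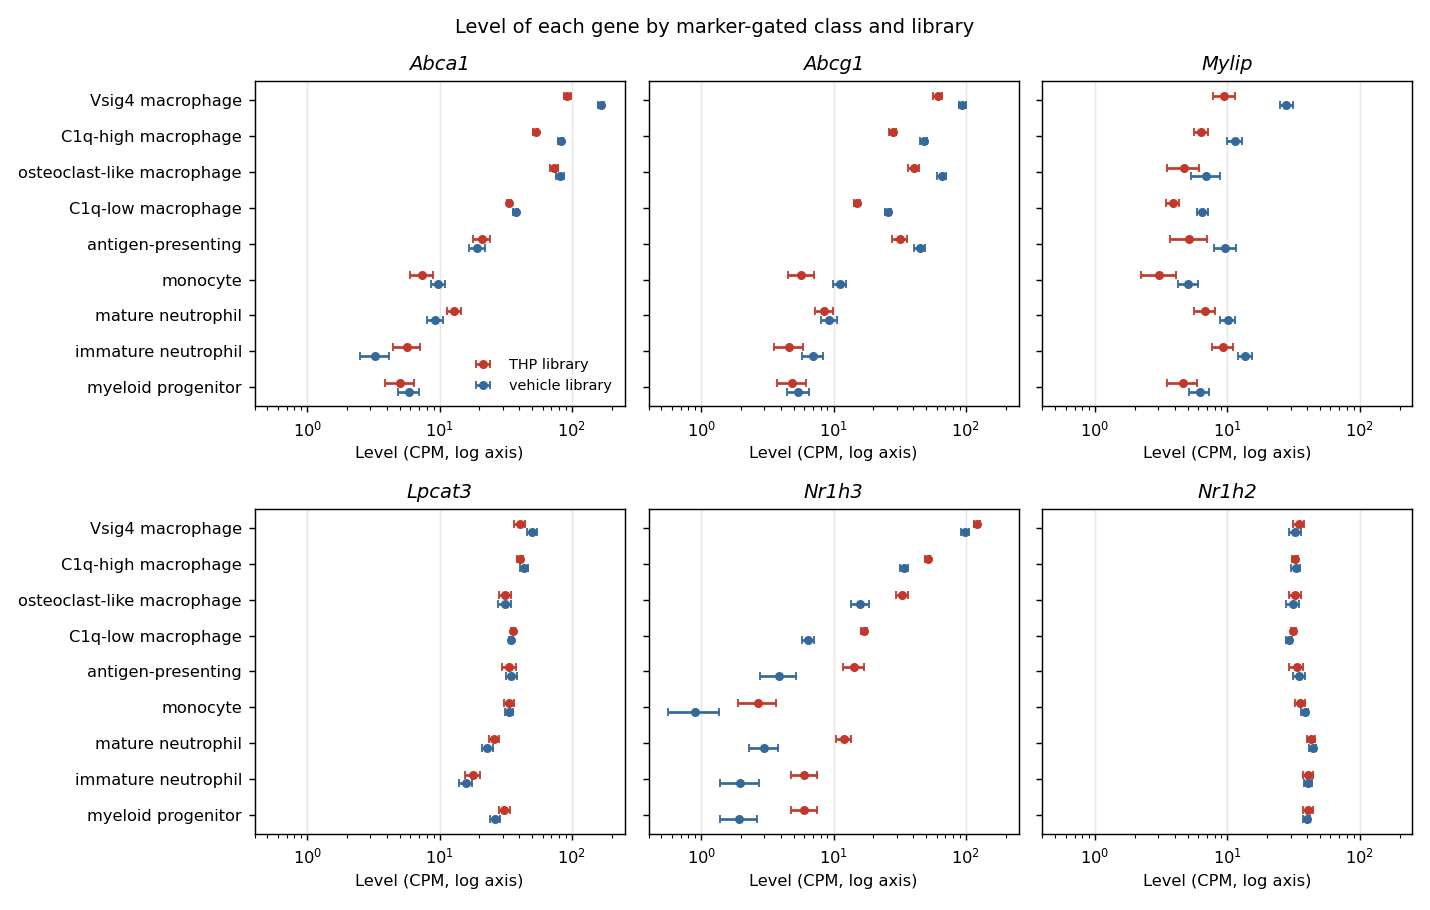
Level of each gene (CPM, log horizontal axis) in 9 marker-gated classes, with the THP library in red and the vehicle library in blue; whiskers are exact Poisson 95% intervals. Abca1, Abcg1 and Nr1h3 are highest in the Vsig4 macrophage gate and low in monocyte, neutrophil and progenitor gates, whereas Nr1h2 stays between 29.2 and 44.1 CPM.

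Both efflux transporters were higher in the 4 macrophage gates than in the monocyte, neutrophil and progenitor gates. Among the 9 larger gates Abca1 was highest in the Vsig4 gate. It stood at 92.2 CPM (86.8 to 97.9) with THP and 166 CPM (159 to 174) with vehicle there, and at 53.2 and 82.4 CPM in the C1q-high gate. The small B cell gate, with 5 and 18 Abca1 UMIs, was at 18.2 CPM (5.91 to 42.5) and 83.9 CPM (49.75 to 132.7). In the vehicle library the C1q-high and osteoclast-like gates, at 82.4 and 81.8 CPM, overlapped, and in the THP library they did not, at 53.2 and 73.3 CPM. The Abca1 fold was 0.5545 in the Vsig4 gate (0.513 to 0.599) and 0.646 in the C1q-high gate (0.606 to 0.688). In the C1q-low and osteoclast-like gates it was 0.887 and 0.897, and both turned above 1 with TMM scaling, to log2 ratios of 0.12 and 0.13. Against genes of like length the Abca1 log2 ratio was -0.23 in the Vsig4 gate. It was -0.03 in the C1q-high gate, almost level with such genes, and 0.42 and 0.45 in the C1q-low and osteoclast-like gates. In the monocyte gate the Abca1 fold was 0.751 (0.591 to 0.951), and in the antigen-presenting and progenitor gates the interval spanned 1. With clusters the progenitor fold was 2.86 (1.775 to 4.75), at 2.12 CPM with THP and 0.742 CPM with vehicle.

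Among the 9 larger gates Abcg1 was highest in the Vsig4 gate, at 61.1 CPM (56.7 to 65.8) with THP and 94.2 CPM (88.4 to 100.3) with vehicle. The osteoclast-like gate came next, at 40.2 and 65.8 CPM. The small B cell gate, with 17 and 11 Abcg1 UMIs, was at 61.9 CPM (36.1 to 99.1) and 51.3 CPM (25.6 to 91.8). Abcg1 was also present in the antigen-presenting gate, at 31.6 and 44.6 CPM, where the interval overlapped that of the C1q-high gate (27.9 and 48.2 CPM). The fold was 0.580 in the C1q-high gate, 0.580 in the C1q-low gate, 0.612 in the osteoclast-like gate, 0.649 in the Vsig4 gate and 0.511 in the monocyte gate. The monocyte log2 ratio of -0.86 was -0.41 with doubled gate limits and -0.19 with equal weight per cell. The interval of the Abcg1 fold was below 1 in 7 of 9 gates and spanned 1 in the progenitor and mature neutrophil gates. Most genes at 10 CPM or more were lower with THP in every gate, from 65.0% (osteoclast-like) to 69.3% (immature neutrophil). The Abcg1 ratio exceeded that of 31.0% of genes in the antigen-presenting gate and of 28.1% in the immature neutrophil gate. With TMM scaling the log2 ratio was below 0 in the 7 gates and was 0.16 and 0.17 in the progenitor and mature neutrophil gates. Against genes of like length Abcg1 was below in the monocyte gate and the 4 macrophage gates, but at 0.05 in the antigen-presenting gate and 0.04 in the immature neutrophil gate. With clusters the interval spanned 1 in those classes (0.989, from 0.853 to 1.14, and 0.810, from 0.478 to 1.31). Clusters also brought the osteoclast-like fold of 0.612 to 0.908 (0.831 to 0.992). Mature neutrophils moved the other way with clusters, to 0.312 (0.161 to 0.571).

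Mylip had the lowest ratio to vehicle of the 6 members in the macrophage gates. Over the 9 gates its log2 ratio exceeded that of 0.487% (Vsig4) to 30.5% (progenitor) of genes. In the Vsig4 gate Mylip was at 9.43 CPM with THP (7.75 to 11.4) and 27.9 CPM with vehicle (24.8 to 31.3), a fold of 0.338 (0.269 to 0.422). That difference passed the 2-fold rule, which 3.49% of genes in this gate passed downwards. In the vehicle library the Vsig4 gate was the highest of the 9 larger gates and stood apart from them, and in the THP library it overlapped the immature neutrophil gate, at 9.20 CPM. The small B cell gate, with 15 and 21 Mylip UMIs, was above both, at 54.6 CPM (30.6 to 90.1) and 97.9 CPM (60.6 to 149.7), and the stromal gate was at 15.5 and 12.8 CPM. The interval of the Mylip fold was below 1 in 7 of 9 gates, and the point estimates ran from 0.338 to 0.743. With clusters it spanned 1 in antigen-presenting (0.793, 0.599 to 1.04), immature neutrophil (0.745, 0.537 to 1.01) and mature neutrophil classes (0.841, 0.596 to 1.185). It also did so in monocytes with doubled limits (0.768, 0.551 to 1.06). Mature neutrophils without the cells rich in macrophage markers gave 0.772 (0.585 to 1.01). Progenitors with clusters went the other way, below 1 (0.708, 0.570 to 0.877). The shares of thinned Vsig4 cells with a Mylip UMI were 5.17% (3.46 to 7.38) and 16.7% (13.3 to 20.5), and unthinned 16.01% and 41.2%.

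Lpcat3 spanned 1.61 log2 units over the gates and libraries. Among the 9 larger gates it was highest in the C1q-high and Vsig4 gates, at 40.4 and 40.3 CPM with THP and 43.5 and 49.8 CPM with vehicle. The small stromal gate (75 and 69 cells) was at 55.2 CPM (44.9 to 67.2) and 46.1 CPM (38.6 to 54.6). Lpcat3 was lowest in immature neutrophils, at 17.8 and 15.7 CPM. The interval of the fold spanned 1 in 7 of 9 gates, was below 1 in the Vsig4 gate (0.808, from 0.712 to 0.918) and above 1 in the progenitor gate (1.17, from 1.03 to 1.33). Other settings moved some of these. For mature neutrophils doubled gate limits gave 1.172 (1.019 to 1.347), whereas clusters gave 0.534 (0.388 to 0.730). In the C1q-high gate doubled limits gave 0.837 (0.7595 to 0.922). With TMM scaling the Vsig4 log2 ratio of -0.30 became -0.02. For Vsig4 cells doubled gate limits gave a fold of 0.9998 (0.811 to 1.23), and clusters 0.924 (0.843 to 1.01).

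**Figure D4:**
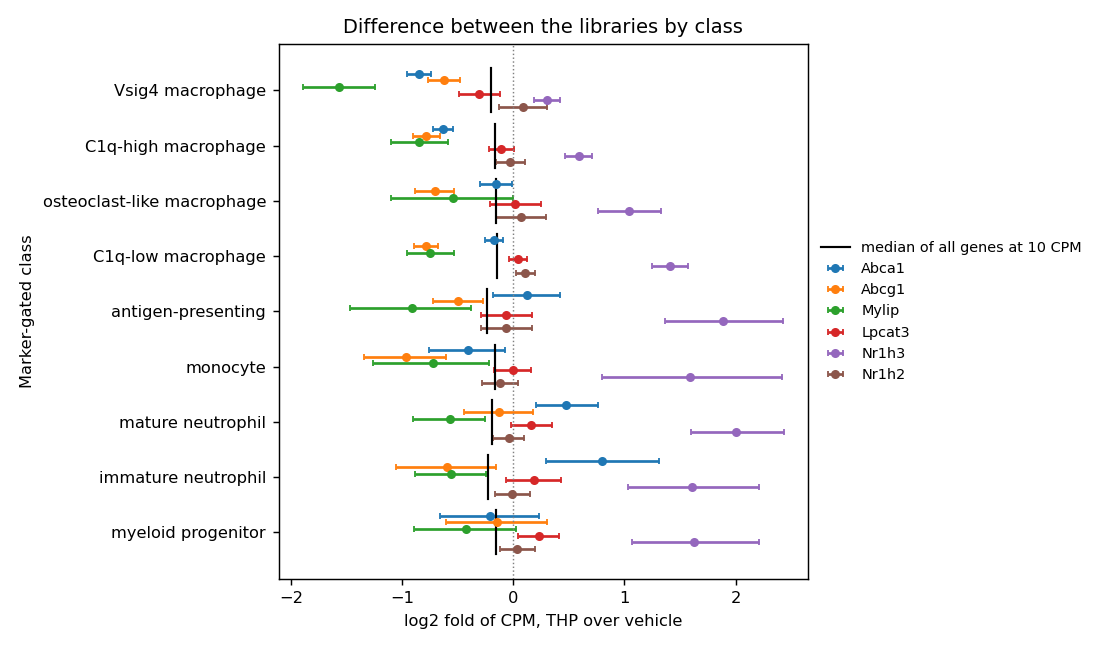
Log2 fold of CPM, THP over vehicle (horizontal axis), for the 6 genes in 9 marker-gated classes. Points carry counting intervals of 95%, the black bar is the median log2 ratio of all genes at 10 CPM or more in that class, and the dotted line marks equal levels. Nr1h3 lies to the right of 0 in 9 of 9 classes, and Mylip to the left in 9 of 9, with an interval that reaches 0 in the progenitor and osteoclast-like classes.

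In the neutrophil gates the levels of Nr1h3 and Abca1 moved with macrophage markers. In the mature neutrophil gate Nr1h3 was at 11.97 CPM with THP (10.5 to 13.6) and 2.98 CPM with vehicle (2.28 to 3.82), 4.02-fold (3.02 to 5.41). Abca1 there was at 12.9 and 9.23 CPM, 1.39-fold (1.15 to 1.69). All 9 of the 9 macrophage markers stood at a higher share of their macrophage-gate level in the THP library in both neutrophil gates, from 26.5% (Mrc1) to 57.5% (Csf1r) in the mature gate. The C1qa level was 36.4% of that in the macrophage gates with THP and 13.1% with vehicle, and the Adgre1 level 36.4% and 25.45%. Nr1h3 stood at 33.5% and 13.4% of its own macrophage level, close to the C1q genes, C1qb with 33.8% and 14.98% and C1qc with 32.1% and 13.4%.

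Leaving out the neutrophil-gate cells with 10 or more macrophage marker UMIs per 10000 kept 1237 THP and 1554 vehicle cells of the mature gate. Nr1h3 was then at 2.27 CPM (1.498 to 3.31) and 1.10 CPM (0.651 to 1.74), 2.07-fold (1.10 to 3.99). Abca1 was then at 2.02 and 1.04 CPM, 1.95-fold (1.00 to 3.86). In the immature neutrophil gate Abca1 went from 5.64 and 3.24 CPM to 1.38 and 0.944 CPM, and its fold from 1.74 (1.22 to 2.47) to 1.46 (0.700 to 3.04). Abcg1 in the cleaned mature gate was at 2.69 and 5.55 CPM, 0.486-fold (0.314 to 0.734), where the uncleaned gate gave 0.913. In the antigen-presenting gate Nr1h3 went from 14.25 and 3.86 CPM to 5.14 and 1.42 CPM, 3.63-fold (1.54 to 9.47). Abca1 there turned from 1.09-fold (0.881 to 1.34) to 0.501-fold (0.316 to 0.775). In the uncleaned antigen-presenting gate Nr1h3 stood at 39.9% of its macrophage level with THP and 17.3% with vehicle, whereas C1qa stood at 17.4% and 16.2%, Adgre1 at 37.7% and 44.15% and Csf1r at 70.9% and 72.95%. In the monocyte gate Nr1h3 stood at 7.56% and 4.02%, C1qa at 3.04% and 2.06% and Adgre1 at 28.98% and 39.2%. The part of the macrophage markers in these results was not tested beyond this.

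The differences were also seen in subsets of the macrophage gates. In cells high for cycling markers (2717 and 1899 cells) Nr1h3 was 1.54-fold (1.44 to 1.66) and Abcg1 0.580-fold (0.543 to 0.619), and in the others (3281 and 1988 cells) 1.61-fold (1.502 to 1.72) and 0.579-fold (0.544 to 0.616). Mylip was 0.522-fold and 0.519-fold in these. Levels of Abca1 were lower in the cycling-high cells, at 38.4 and 52.2 CPM, than in the cycling-low cells, at 55.35 and 79.25 CPM. The few cells high for interferon-response markers (210 and 80) gave an Nr1h3 fold of 1.37 (1.03 to 1.84) and a Mylip fold of 0.436 (0.248 to 0.770).

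Other genes of the pathway were read in the macrophage gates from lists chosen with earlier results of these data known. Of all 7843 genes at 10 CPM or more there, 5206 (66.4%) had a ratio below 1, against which the counts of each list are to be read. Among 15 further LXR targets, 12 reached 10 CPM, of which 3 had a ratio above 1 and 9 below, with a median log2 ratio of -0.16, equal to the -0.16 of all genes. Arl4c, a small GTPase, was at 52.1 CPM with THP and 111.5 CPM with vehicle (0.468-fold, 0.455 to 0.481), the only gene of the list past 2-fold on CPM + 1 among those at 10 CPM or more. Mertk, an LXR-driven receptor for apoptotic cells, was at 13.2 and 26.8 CPM (0.493-fold, 0.465 to 0.523). Apoe, which carries effluxed lipid, was at 311 and 306 CPM (1.015-fold, 1.00 to 1.03), and over all cells at 233.6 and 179.8 CPM (1.299-fold). Tgm2, a transglutaminase, was at 17.25 and 12.96 CPM (1.33-fold, 1.25 to 1.42). Srebf1, the LXR-driven regulator of fatty acid synthesis, was at 21.6 and 25.4 CPM (0.850-fold, 0.807 to 0.895), and is named after its value was seen.

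Of 16 LXR partners and cofactors all 16 reached 10 CPM in these gates, 4 with a ratio above 1 and 12 below, with a median log2 ratio of -0.51. The coactivator Ncoa1 was at 15.4 and 29.3 CPM (0.524-fold, 0.496 to 0.553), and the corepressor subunit Tbl1xr1 at 31.1 and 54.1 CPM (0.575-fold). Prmt1, an arginine methyltransferase, was at 137.5 and 106.6 CPM (1.29-fold), and Gps2, a corepressor subunit, at 44.45 and 42.9 CPM (1.035-fold, 0.996 to 1.07). Rxra, the retinoid X receptor that pairs with LXR, was at 5.91 and 10.95 CPM (0.539-fold, 0.493 to 0.589). It is named here after its value was seen. Against genes of like length 6 of the 16 were above and 10 below the running median.

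Of the 7 enzymes listed that make or remove LXR ligands, most stayed under 10 CPM. Among these Ch25h, which makes an oxysterol, was at 8.60 and 3.93 CPM (2.19-fold, 1.96 to 2.45), and is named after its value was seen. Of 15 measured genes for cholesterol uptake, storage and trafficking, 3 had a ratio above 1 and 12 below, with a median of -0.39. Gramd1a, a sterol transfer protein, was at 24.6 and 16.05 CPM (1.54-fold), whereas its relative Gramd1b was at 17.7 and 33.6 CPM (0.526-fold) and Osbpl1a at 18.2 and 28.2 CPM (0.645-fold).

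All 7 of the other lipid ABC transporters measured there had a ratio below 1, with a median of -0.36, though against genes of like length 4 were above and 3 below. Abcb4, a phosphatidylcholine floppase, was at 7.88 and 16.5 CPM (0.479-fold), and Abcg2 at 9.43 and 14.0 CPM (0.674-fold). Abcc1 stood at 0.778-fold, and Abcg3, named after its value was seen, was at 3.62 and 10.7 CPM, the 1 gene of the list past 2-fold on CPM + 1 among those at 10 CPM or more. Of 14 genes for SREBP2 and sterol synthesis, 3 had a ratio above 1 and 11 below, with a median of -0.07, and 11 of the 14 lay above genes of like length. Fdps was at 87.4 and 73.2 CPM (1.195-fold), Fdft1 at 27.2 and 25.01 CPM (1.09-fold), Cyp51 at 52.5 and 70.1 CPM (0.749-fold) and Hmgcs1 at 71.3 and 87.0 CPM (0.820-fold). All 10 measured phospholipid genes had a ratio below 1, with a median of -0.36, though against genes of like length 4 were above and 6 below. Acsl3 was at 24.9 and 49.5 CPM (0.503-fold), Pla2g4a at 32.8 and 54.9 CPM (0.597-fold), Agpat3 at 29.9 and 31.6 CPM (0.945-fold) and Lpcat2 at 47.8 and 48.1 CPM (0.995-fold). Over all cells some of these directions moved with the scaling and others did not: 5 of 13 sterol synthesis genes had a ratio above 1 by CPM and 12 with TMM scaling, whereas 4 of 15 partners and cofactors did under both.

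**Figure D5:**
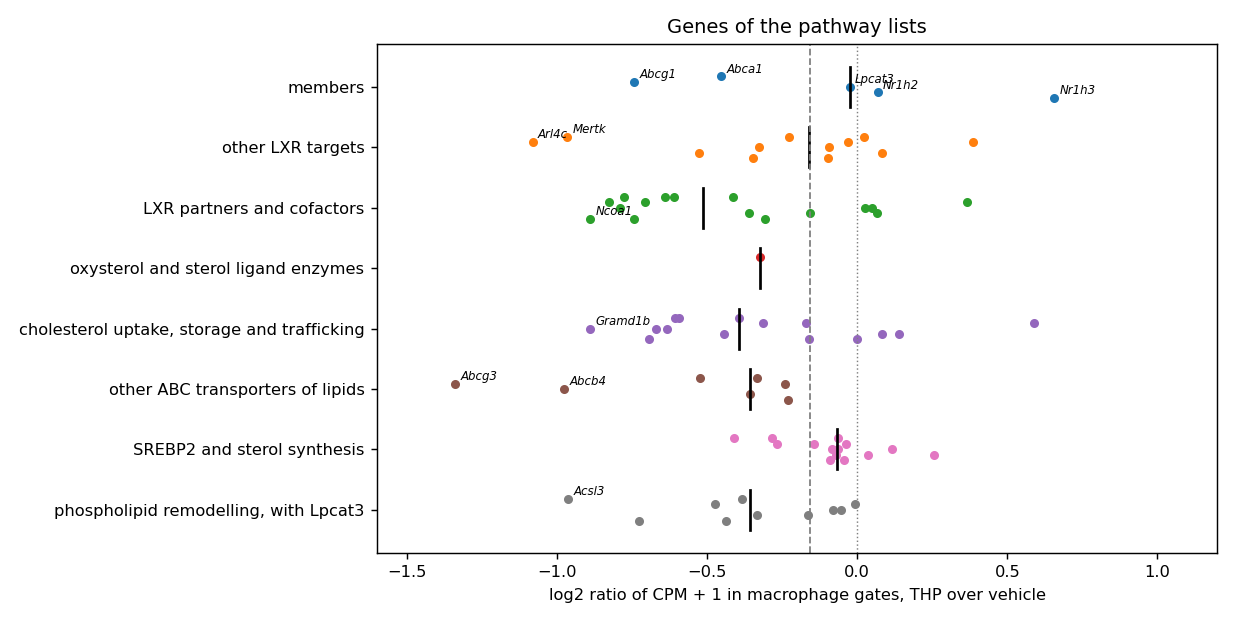
Log2 ratio of CPM + 1, THP over vehicle, in the macrophage gates (horizontal axis) for the members and the genes of 7 pathway lists at 10 CPM or more. Each point is a gene, black bars are list medians, the dashed line is the median of all genes (-0.16) and the dotted line marks equal levels. Nr1h3 is the rightmost member at 0.66, and Abcg1 the leftmost at -0.75.

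The genes most like each member were taken from the 18 profiles of gates and libraries (Pearson's r of log2(CPM + 1), a description, since profiles of 1 library share its depth and scaling). Nr1h3 was followed most closely by Marco, a scavenger receptor (r = 0.965), Ms4a7 (0.953) and C1qc (0.949), of which C1qc was used to make the gates. Abca1 was followed by Sdc3 (0.985), Adap2 (0.984) and Blnk (0.982), and Abcg1 by Pdgfb (0.971) and the lipid transporter Abcb4 (0.959). Lpcat3 was followed by Insig1, a sterol-sensing protein of the endoplasmic reticulum (0.959), Ift46 (0.954) and Capzb (0.953). Nr1h2 was followed by Csf3r (0.936), Cdk2ap2 (0.934) and Ms4a3 (0.930). Csf3r and Ms4a3 are genes of neutrophils and their precursors, and both were used to make the gates, as C1qc was. Between members, r was 0.927 for Abca1 and Abcg1, 0.863 for Abca1 and Nr1h3, and 0.740 for Abcg1 and Nr1h3, whereas Nr1h2 had r of -0.770 with Abca1.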

How the data were processed

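The authors deposited a matrix per library of whole-number, unnormalized UMI counts (format version 2, software version 3.1.0, per the file headers). Cell Ranger, STAR, bcl2fastq and the mm10 build are named in the submitters' processing notes. Members, gene lists and naming rule were chosen with earlier results of these data known, and gate limits after the marker distributions were seen.

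Barcodes with at least 500 genes, at least 1000 UMIs and at most 10% mitochondrial UMIs were kept. Doublets were not removed. Marker gates used summed marker UMIs per 10000 UMIs, with limits of 10 for macrophages and 200 for neutrophils, for example. UMIs were summed per library or gate and divided by their total (CPM). Intervals are exact Poisson for levels, exact conditional binomial for folds and exact (Clopper-Pearson) binomial for shares, at 95%. Folds are of CPM; log2 ratios are of CPM + 1, which understates low genes. No test was possible with 1 library per group.

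Transcript length was the longest GENCODE M21 transcript, matched for 30934 of 31053 genes (99.6%). The genes named were the 6 members, the 2 highest and 2 lowest of each list at 10 CPM or more over all kept cells, and the 3 genes most like each member; those added later are marked, and some that the rule names are not reported here. Alternatives covered pseudocount, filters, scaling (edgeR 4.0.16, TMM and RLE factors), cell weighting, thinning to 5000 UMIs, class mix, gate limits and Leiden clusters (igraph 0.11.9). The calculation was tested on simulated data.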

Additional observations from a re-analysis of the deposited data

Results flagged for a closer look

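Abca1 and Lpcat3 differed in opposite directions between gates, with counting intervals on opposite sides of 1. The Abca1 fold of THP over vehicle was 1.74 (1.22 to 2.47) in the immature neutrophil gate and 0.5545 (0.513 to 0.599) in the Vsig4 macrophage gate. The difference between the gates was not tested. The C1qa level in the immature neutrophil gate was 15.1% of that in the macrophage gates with THP and 6.62% with vehicle, and without the cells rich in macrophage markers the Abca1 interval spanned 1 (0.700 to 3.04).

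The Lpcat3 fold was 1.17 (1.03 to 1.33) in the myeloid progenitor gate and 0.808 (0.712 to 0.918) in the Vsig4 macrophage gate, and this difference was not tested either. In the progenitor gate C1qa stood at 13.8% and 7.98% of its macrophage level, and without the cells rich in macrophage markers the Lpcat3 fold was 1.11 (0.966 to 1.29). Doubled gate limits gave Lpcat3 folds of 1.07 (0.931 to 1.22) in progenitors and 0.9998 (0.811 to 1.23) in the Vsig4 gate. Clusters gave 1.10 (0.9997 to 1.21) and 0.924 (0.843 to 1.01), so all these intervals spanned 1.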

How the results depend on the processing

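Nr1h3 stayed higher with THP under all 12 alternatives over all cells (log2 ratios of 0.78 to 1.304), and Mylip (-0.78 to -0.42) stayed lower. Abcg1 ran from -0.65 to -0.01. The value of -0.01 came with the length correction and left Abcg1 almost level with genes of like length. The number of members past the 2-fold rule was 1 under the other alternatives run for it and 0 with equal weight per cell and with the same mix of classes. Abca1, at -0.10 over all cells, reversed to 0.18 with TMM factors, 0.17 with RLE factors, 0.079 with the median of all genes subtracted and 0.51 with the length correction. It also reversed to 0.12 (C1q-low gate) and 0.13 (osteoclast-like gate) with library TMM factors, and with clusters to 0.37 (osteoclast-like) and -0.03 (mature neutrophil). In progenitors, where the gate interval spanned 1, clusters gave an Abca1 fold of 2.86 (1.775 to 4.75). TMM factors within gates and the removal of cells rich in macrophage markers were chosen after seeing the data. The cause of the reversals was not tested. No cluster stood in for the C1q-high, C1q-low or monocyte gates: the clusters led by chemokine genes, nearly all THP cells, were left unnamed. No paired analysis was possible because each group has 1 library. Counting depth limits Nr1h3 in monocytes, with 38 and 22 UMIs, and the B cell gate.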
